A study of Mus musculus with 15 samples.

Results

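The ATF4 stress response, with the tRNA synthetases that belong to it, was followed in ΔE-NOTCH1 mouse leukemias through 33 genes. They were chosen by name from a list, all 33 were found among the 39827 genes of the count table, and all 33 passed the filter on low counts. They comprised 12 regulators and effectors of the response, 10 enzymes of amino acid and one-carbon metabolism, and 11 cytosolic aminoacyl-tRNA synthetases. RNA came from spleen leukemic T cells of mice in 15 RNA-seq libraries, 3 in each of 5 groups. In all groups, marrow progenitors sorted as GFP+, lineage-negative, cKit+ and Sca1+ had received ΔE-NOTCH1, a constitutively active form of the receptor, by retrovirus and had been placed in lethally irradiated C57BL/6J hosts. WT0 PBS was a Bcat1 wild-type leukemia given PBS, and WT0 ERG-245 a wild-type leukemia given the BCAT1 inhibitor ERG-245 by intraperitoneal injection, in 3 doses of 30 mg per kg at intervals of 8 h. WT6 was a wild-type leukemia, and KO7 and KO3 were Bcat1 knock-out leukemias, which the labels also describe as PBS treated. The alignment names of the 3 WT0 PBS libraries contain DMSO, whereas their labels name PBS. The labels give neither the age of the animals nor whether the 3 libraries of a group came from separate mice, so the p-values measure the spread between these libraries, which may be technical.

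ATF4 is a transcription factor regulated mostly at translation: when kinases such as GCN2, which senses uncharged tRNA, or PERK, which senses unfolded protein in the endoplasmic reticulum, phosphorylate eIF2α, bulk protein synthesis falls while the Atf4 mRNA is translated more. The level of its mRNA is therefore not a measure of its activity, which is usually read from its target genes. Those targets take up and make amino acids, charge tRNAs and, through CHOP (Ddit3), TRIB3 and CHAC1, limit growth or survival. BCAT1 is the cytosolic transaminase of the branched-chain amino acids and yields glutamate.

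ATF4 binds DNA as a dimer with C/EBP proteins at composite sites whose core is written here as TGATGNAA. The core was searched on both strands of the RefSeq promoters of GRCm38.p6, from 250 bases before a gene's start to 50 after it; read on the gene's own strand a match on the other strand appears as TTNCATCA. Of the 33 members 29 had a promoter there, all except Cth, Lars, Nars and Wars. The core stood in 12 of these 29 (41.4%), against 1219 of 27025 genes with a promoter (4.51%), and in 37.5% of the members' windows against 3.97% of all windows. By role it was found in 5 of 12 regulators and effectors, 2 of 9 enzymes and 5 of 8 synthetases. Outside the members it was found in 4 of 13 other ATF4 or CHOP targets (30.8%, against 22.2% of the member enzymes), in 1 of 13 sensors and eIF2 genes, and in 0 of 5 other cytosolic and 0 of 14 mitochondrial synthetases. The genes with a match were Atf3, Nupr1, Trib3, Chac1, Vldlr, Asns, Pycr1, Gars, Aars, Iars, Tars and Yars. A match is a string of letters and not a measured binding site.

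The 8 windows below show the core in capitals with up to 30 bases on each side, on the gene's strand, 5′ to 3′, and all lie before the RefSeq start; they are given because several of these genes carry the differences described further on. The match begins 110 bases before the start in Atf3 (chr1:191183406-191183473, minus strand) and in Nupr1 (chr7:126625543-126625610, minus), 193 before it in Chac1 (chr2:119351019-119351086, plus) and 23 before it in Asns (chr6:7693210-7693262, minus). It begins 103 bases before the start in Pycr1 (chr11:120643814-120643881, minus), 30 in Gars (chr6:55037941-55038000, plus), 112 in Aars (chr8:111033700-111033767, plus) and 15 in Tars (chr15:11399659-11399703, minus).
Atf3: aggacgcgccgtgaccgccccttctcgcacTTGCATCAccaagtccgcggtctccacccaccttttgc
Nupr1: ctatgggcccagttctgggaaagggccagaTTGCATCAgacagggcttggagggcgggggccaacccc
Chac1: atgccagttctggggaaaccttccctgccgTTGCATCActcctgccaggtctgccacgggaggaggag
Asns: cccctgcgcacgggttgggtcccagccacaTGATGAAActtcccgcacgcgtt
Pycr1: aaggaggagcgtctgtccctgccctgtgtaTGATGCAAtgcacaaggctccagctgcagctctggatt
Gars: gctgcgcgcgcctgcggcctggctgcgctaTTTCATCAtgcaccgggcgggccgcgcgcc
Aars: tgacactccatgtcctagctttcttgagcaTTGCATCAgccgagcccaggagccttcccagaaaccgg
Tars: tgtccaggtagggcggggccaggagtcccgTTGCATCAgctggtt
Asns and Pycr1 carry the core on the gene's own strand, the other 6 on the opposite strand. As printed, the same 8 letters are shared by 5 of the 8 (Atf3, Nupr1, Chac1, Aars and Tars). The match in Pycr1 is the same sequence read on the other strand. The annotated span of Aars begins upstream of the start used here (chr8:111027778-111055569). Aars also has a second match after its start, and Vldlr has a match 200 bases before its start, and neither is shown.

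Total counts were 17441292 to 28902573 per library, and libraries of a group correlated at 0.997 to 0.998 in log2 CPM (read counts relative to the TMM-scaled library total), against 0.953 to 0.976 between groups. All 10 T-lineage markers, Cd3e, Lck and Thy1 among them, were detected in every group and held 0.376% to 0.642% of counts in the group means. Erythroid markers (11 genes) held 3.98% of counts with PBS and 4.63% with ERG-245 in WT0, 1.25% in WT6, 5.75% in KO7 and 1.14% in KO3, and plasma cell markers (9 genes) 0.141%, 0.352%, 0.925%, 0.426% and 0.32% in the same order. Macrophage markers (10 genes) were highest in KO7, at 0.326%, and between 0.111% and 0.197% elsewhere. In these bulk samples fewer cells of a type and less RNA per cell cannot be told apart. Bcat1, the targeted gene, had mean levels of 17.8, 13.3, 35.2, 2.09 and 6.95 CPM in the same order of groups. The leading T cell receptor beta V segment was Trbv17 in WT0 PBS, with 39.7% of such counts, and Trbv16 in WT0 ERG-245, with 49.9%, where Trbv17 held 0.93%. The treated and the untreated WT0 libraries thus differed in their leading V segment as well as in treatment, and these cannot be told apart.

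**Figure D1:**
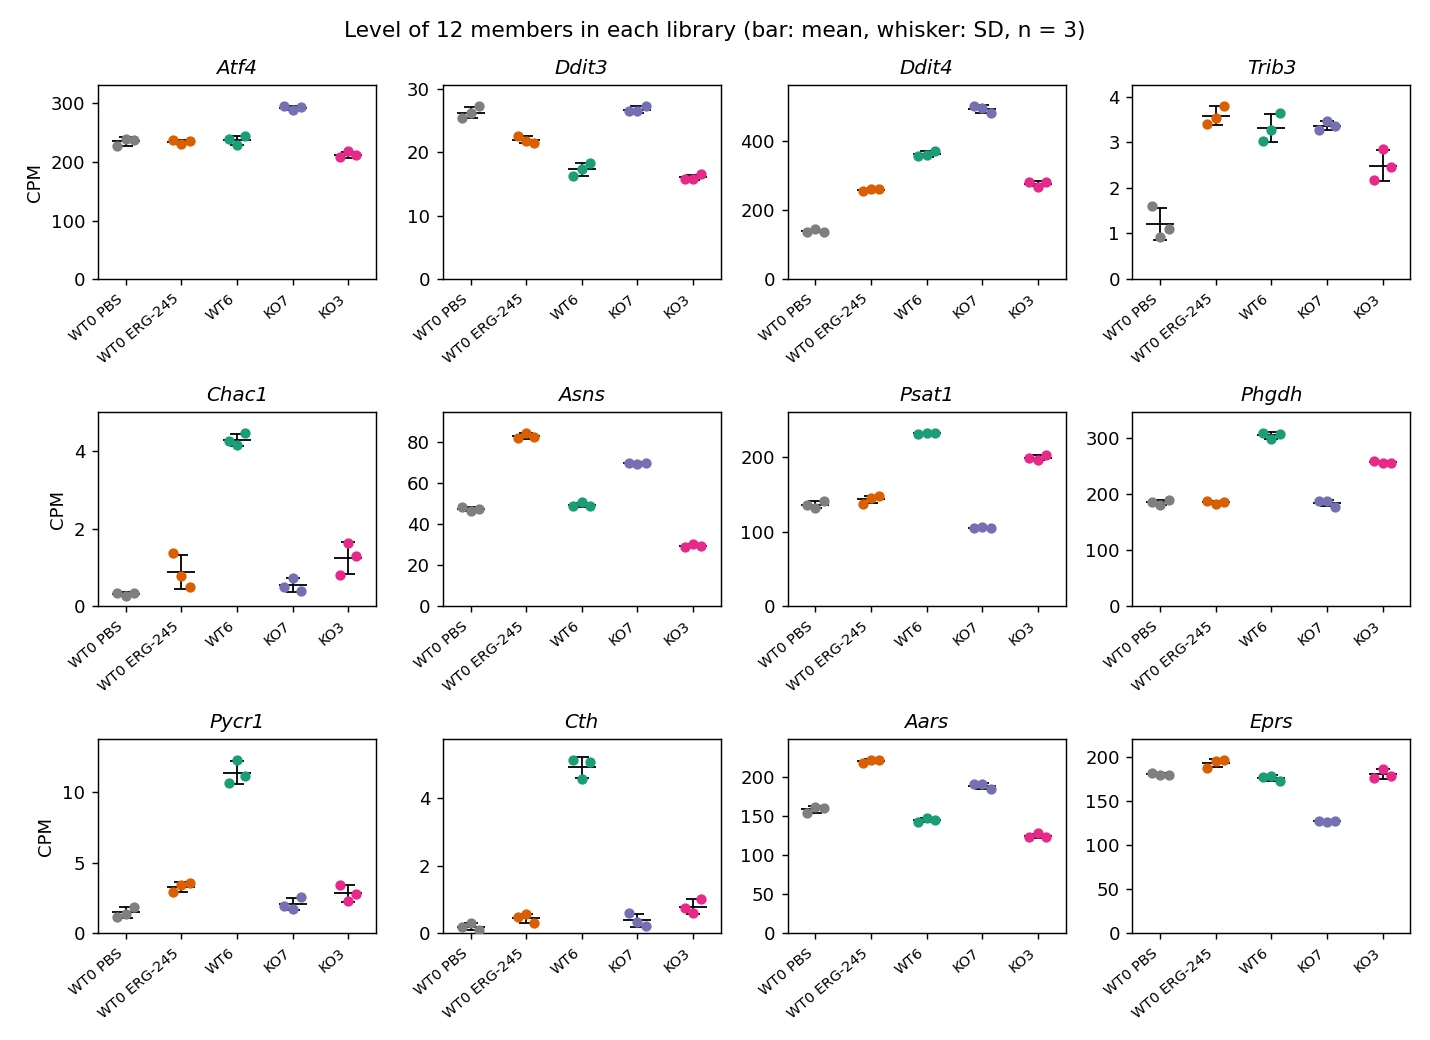
Level of selected members in each library (CPM, linear axes from 0), with 1 point per library, the 5 groups side by side, and the mean and SD (n = 3) as bar and whisker. Chac1, Pycr1 and Cth stand higher in WT6 than in every other group.

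Levels can be compared between genes only per length. In WT0 PBS, CPM per kilobase of exon ran from 0.0891 for Vldlr, 0.11 for Cth and 0.205 for Chac1 to 136 for Atf4. Shmt2 and Phgdh, enzymes that make glycine and serine, stood at 100 and 99 CPM per kilobase, Ddit4, an inhibitor of mTORC1, at 82.8, and the glycyl synthetase Gars at 65.8. Asns, which makes asparagine, stood at 20.1 and Ddit3 at 10.3.

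The members did not share an order over the 5 groups. WT6 had the highest group mean for 13 of 33 members, WT0 ERG-245 for 10, KO7 for 6, and WT0 PBS and KO3 for 2 each, where each group was highest for 16.6% to 23.2% of all genes tested. The lowest mean fell in WT0 PBS for 13 members, in KO7 for 10, in KO3 for 6, in WT0 ERG-245 for 4 and in WT6 for 0. Of all genes tested, 21.1%, 22.4%, 17.2%, 20.6% and 18.7% had their lowest mean in these groups, in the same order. In 11 members (13.7% of all genes tested) the 3 WT6 libraries lay above the 12 others: Atf5, Chac1, Psat1, Phgdh, Psph, Shmt2, Pycr1, Cth, Nars, Sars and Yars. WT0 ERG-245 lay above all other libraries in Asns, Mthfd2, Aldh18a1, Aars, Eprs and Mars (6 members, background 11.1%). KO7 lay below all others in Psat1, Shmt2, Aldh18a1, Eprs, Iars and Mars (6 members, background 11.1%) and above them in Atf4 and Ddit4 (2 members, background 10.7%). WT0 ERG-245 lay below all others in Atf5, Cebpg and Gpt2 (3 members, background 9.43%). KO3 was below all others in Atf4, Asns and Aars (3 members, background 6.18%) and above them in Wars (1 member, background 7.94%). The 8 members for which WT0 PBS was below all others (background 10.6%) were Atf3, Trib3, Chac1, Ddit4, Psph, Nars, Sars and Gars, and it was above all others in Iars (1 member, background 11.5%). WT6 was below all others in 0 members (background 7.64%).

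Atf4 (chr15:80255184-80257545, plus strand) had the highest level per length of the members in WT0 PBS. In WT0 ERG-245, WT6, KO7 and KO3, Ddit4 was higher, at 154, 215, 293 and 165 CPM per kilobase against 135, 137, 169 and 123 for Atf4. Atf4 mRNA was at 227, 240 and 238 CPM in WT0 PBS, 237, 231 and 235 in WT0 ERG-245, 239, 229 and 244 in WT6, 296, 289 and 293 in KO7, and 208, 218 and 212 in KO3. KO7 was above and KO3 below every other library, and the 3 wild-type groups overlapped. Ddit3, which encodes the stress transcription factor CHOP, stood at 25.4, 26.1 and 27.2 CPM in WT0 PBS, 22.6, 21.8 and 21.5 with ERG-245, 16.2, 17.3 and 18.3 in WT6, 26.4, 26.4 and 27.3 in KO7, and 15.8, 15.8 and 16.5 in KO3. WT6 and KO3 shared the lowest Ddit3 levels and overlapped each other, while WT0 PBS and KO7 shared the highest and overlapped as well. Erythroid markers held 1.25% of counts in WT6 and 1.14% in KO3, against 3.98% to 5.75% in the other groups, and their part was not tested. The end of Ddit3 (chr10:127290793-127296291, plus strand) overlaps that of Mars (chr10:127296221-127311786, minus strand), and the counting used strand.

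**Figure D2:**
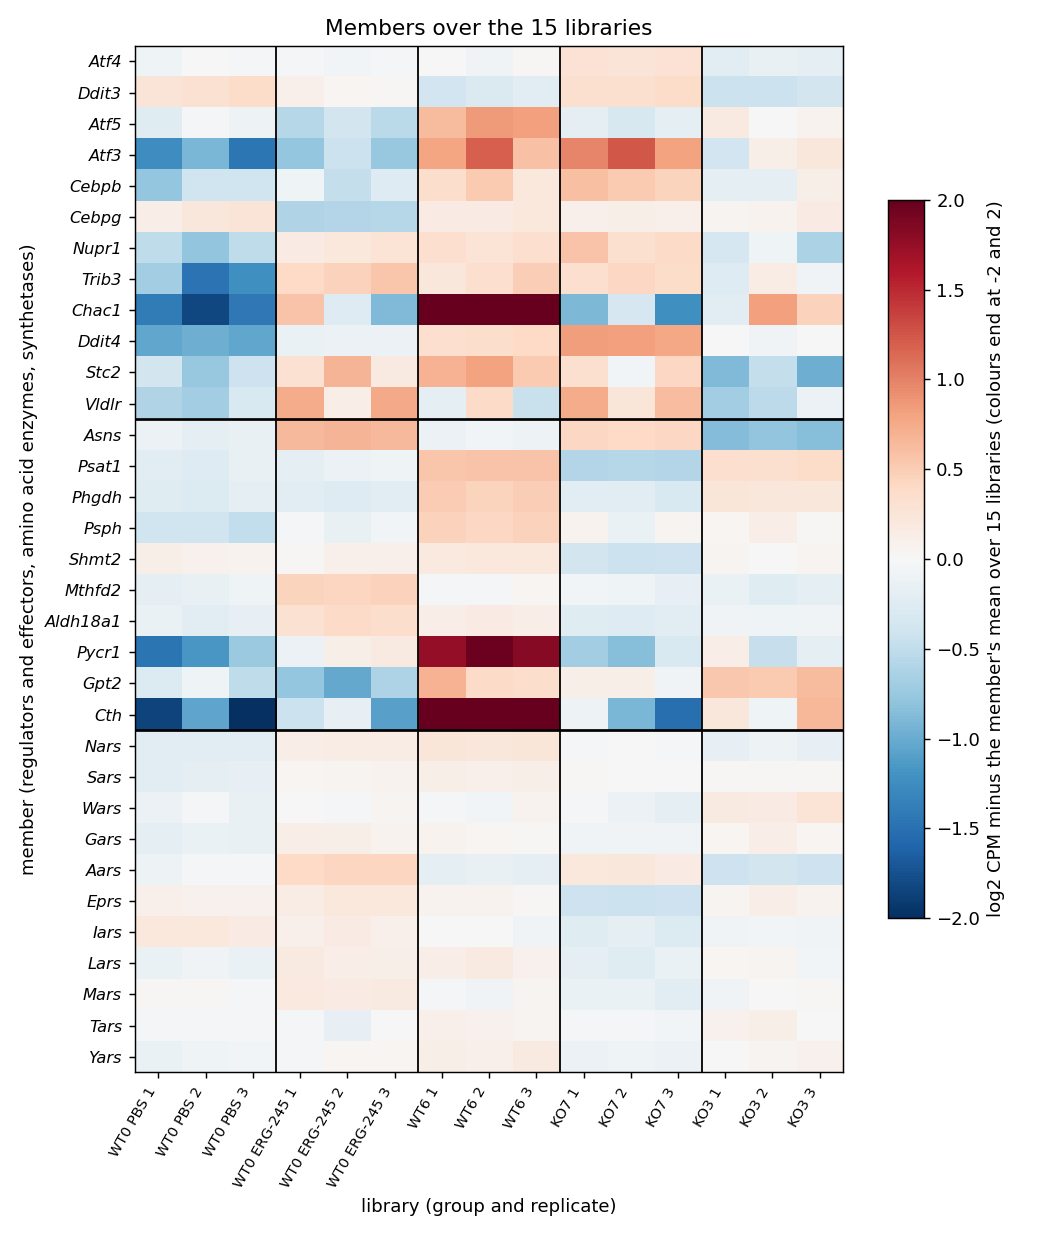
Each row is a member and each column a library; colour gives log2 CPM minus that member's mean over the 15 libraries, with colours ending at -2 and 2. Members are grouped by role, and no group is high or low in all 33 members.

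With ERG-245, asparagine synthetase, the growth inhibitor Ddit4 and several synthetases were higher than with PBS, while Atf4 mRNA did not differ beyond the spread of the libraries and Ddit3, Atf5 and Cebpg were lower. The comparison sets the WT0 libraries given the inhibitor against the WT0 libraries given PBS. These also differed in their leading T cell receptor beta V segment, and the 2 differences cannot be told apart. Below, rose and fell mean higher and lower than in the PBS libraries. Of 33 members 22 were higher and 5 lower (edgeR adjusted p under 0.05), against 33% and 32.8% of the 15948 genes tested, and the members' median difference was log2 0.26 against 0 for all genes. At least 1.5-fold, 10 were higher and 1 lower, against 11.1% and 11.5% of all genes. When libraries were scaled by total counts instead of TMM, 17 members were higher and 9 lower, so that the share of higher among called members was 65.4% in place of 81.5%.

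Among regulators and effectors 6 of 12 rose and 3 fell under ERG-245 (median log2 0.66). Trib3, a pseudokinase that binds and restrains AKT and ATF4, stood at 1.6, 0.926 and 1.1 CPM with PBS and at 3.39, 3.54 and 3.8 with ERG-245. All treated libraries were above all PBS libraries, and Trib3 rose by log2 1.56 (SE 0.201, adjusted p = 2.08e-10). Ddit4 stood at 137, 144 and 137 CPM with PBS and at 257, 261 and 261 with ERG-245, a rise of log2 0.89 (SE 0.0276, adjusted p = 7.79e-43). Vldlr, a lipoprotein receptor, rose by log2 1.11 (SE 0.286, adjusted p = 0.000506) and Stc2, a secreted glycoprotein induced by stress, by 0.92 (SE 0.214, adjusted p = 0.000127), both from low levels of 0.794 ± 0.114 and 1.41 ± 0.196 CPM (SD, n = 3). Cebpg, a C/EBP partner of ATF4, was at 76.6, 81.4 and 83 CPM with PBS and 46, 46.3 and 46.7 with ERG-245. These libraries did not overlap, and Cebpg fell by 0.79 on the log2 scale (SE 0.0407, adjusted p = 4.74e-29), more than any other member. Atf5, a stress transcription factor of the same family as ATF4, fell by 0.37 (adjusted p = 7.87e-06) and Ddit3 by 0.25 (adjusted p = 0.000251). The difference in Atf4 was log2 -0.01 (SE 0.0265, adjusted p = 0.838), and -0.08 when libraries were scaled by total counts (adjusted p = 0.00934).

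Of the 10 enzymes 7 rose under ERG-245 and 1 fell (median log2 0.43). Asns was at 48.5, 46.4 and 47.6 CPM with PBS and 82.3, 84.6 and 82.4 with ERG-245, and rose by log2 0.81 (SE 0.0401, adjusted p = 5.89e-30). The treated libraries lay above all 12 other libraries of the study. Mthfd2, the mitochondrial folate enzyme, rose by log2 0.59 from 81.6 ± 3.41 to 122 ± 1.64 CPM, and Aldh18a1, which starts proline synthesis from glutamate, by 0.52 from 78.6 ± 2.53 to 113 ± 2.66 CPM (SD, n = 3). Pycr1, which completes proline synthesis in mitochondria, rose by log2 1.19 (SE 0.196, adjusted p = 1.87e-07) between levels of 1.49 ± 0.381 and 3.32 ± 0.359 CPM. Gpt2, the mitochondrial alanine aminotransferase, fell by 0.52 (SE 0.137, adjusted p = 0.000575). Of the serine enzymes, Psph rose by log2 0.35 (adjusted p = 7.77e-07), while Phgdh was at 185, 180 and 190 CPM with PBS and 187, 182 and 186 with ERG-245, groups that overlapped.

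Among the 11 synthetases 9 rose under ERG-245 and 1, Iars, fell (median log2 0.18). The alanyl synthetase Aars was at 154, 162 and 161 CPM with PBS and 218, 222 and 222 with ERG-245, and rose by log2 0.47 (SE 0.0275, adjusted p = 4.96e-26). The asparaginyl synthetase Nars rose by log2 0.37 (adjusted p = 2.27e-21) and Gars by 0.27 (adjusted p = 1.57e-13). Iars, the isoleucyl synthetase, fell by 0.07 (adjusted p = 0.028). None of the 11 differed by 1.5-fold. Among 9 other cytosolic synthetases 5 rose and 1 fell (median log2 0.19), with Hars at log2 0.42 and Kars at 0.27. Of 17 mitochondrial synthetases 6 rose and 5 fell (median log2 0.08), from Fars2 at 0.41 to Aars2 at -0.44.

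Further genes of the pathway were also described. Of 16 sensors and eIF2 subunits 12 rose with ERG-245 and 2 fell (median log2 0.23), among them the eIF2 subunit Eif2s2 (log2 0.46), while Gcn1, which activates GCN2, fell by 0.33 and Impact, which inhibits it, by 0.23. Of 17 other ATF4 or CHOP targets tested 8 rose and 5 fell (median log2 0.08), against 33% and 32.8% of all genes. Eif4ebp1, a repressor of cap-dependent translation, rose by log2 1.36 from 17.1 ± 0.69 to 43.7 ± 1.32 CPM, and the amino acid transporters Slc38a2 and Slc1a5 fell by 0.52 and 0.37. Members with the promoter core were higher in 9 of 12 and lower in 1 (median log2 0.66), and those with a promoter but no core higher in 9 of 17 and lower in 4 (median log2 0.10), a difference that was not tested.

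T-lineage markers fell from 0.557% (0.555% to 0.558% over libraries) to 0.376% (0.371% to 0.379%) of counts with ERG-245, with 8 of 10 genes lower and 1 higher. Plasma cell markers rose from 0.141% (0.14% to 0.143%) to 0.352% (0.347% to 0.355%), with 8 of 9 genes higher, and erythroid markers from 3.98% (3.86% to 4.07%) to 4.63% (4.44% to 4.81%), with 9 of 11 higher. Neutrophil markers (9 genes) fell from 0.0069% (0.00678% to 0.00702%) to 0.000342% (0.000288% to 0.000419%), with 7 of 8 tested lower (median log2 -4.30) and Ly6g at 0 in all treated libraries. Platelet markers fell from 0.0135% (0.0132% to 0.014%) to 0.00211% (0.00197% to 0.0023%), with 5 of 5 lower (-3.55), and B cell markers from 0.00744% (0.00722% to 0.00768%) to 0.00288% (0.00277% to 0.00309%), with 7 of 7 lower (-1.69). All 7 stroma markers and 6 of 10 macrophage markers were higher, and 2 macrophage markers lower. The part of these cells in the members' differences was not tested.

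**Figure D3:**
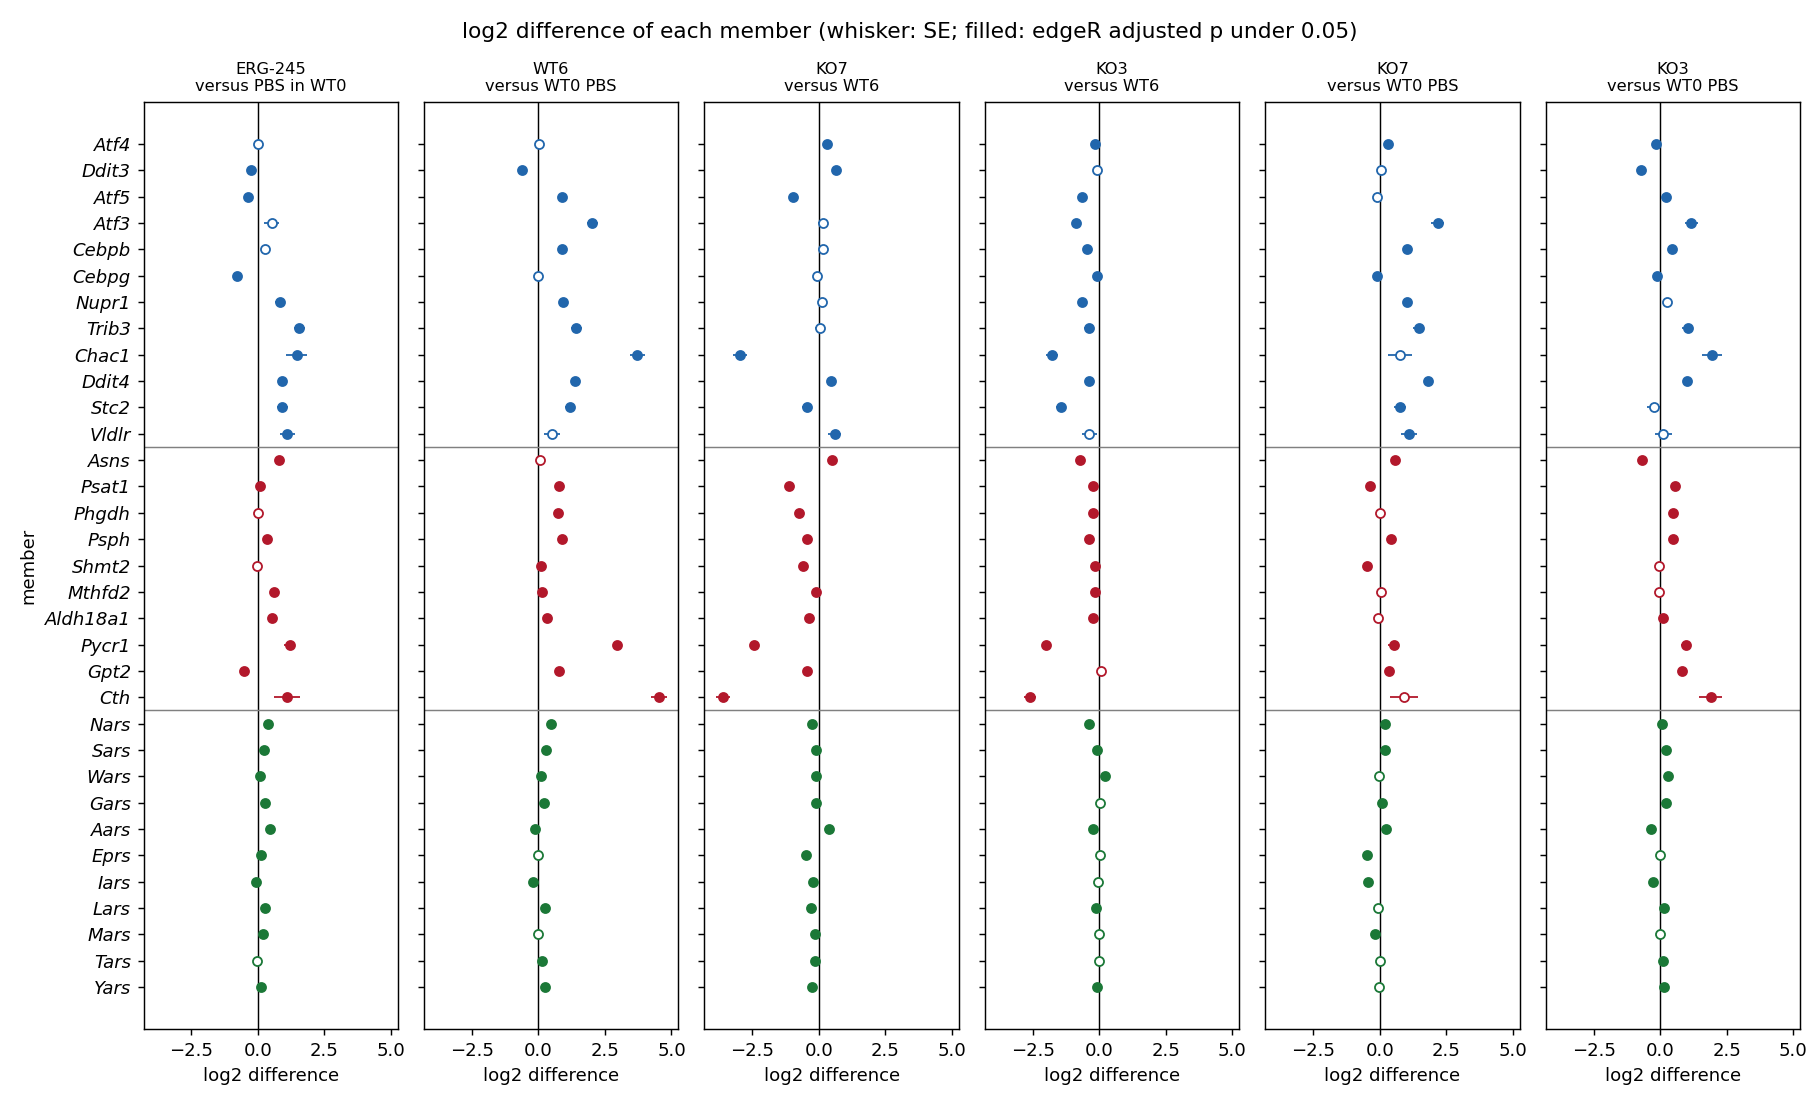
Log2 difference of every member (1 line each, coloured by role) in 6 comparisons, with its standard error; filled points passed an edgeR adjusted p of 0.05. Cth, Chac1 and Pycr1 have the largest differences in the comparisons that involve WT6.

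The wild-type leukemias given PBS differed from each other most in Cth, Chac1 and Pycr1, which were far higher in WT6. WT6 was higher than WT0 PBS in 24 of 33 members and lower in 3, against 36.8% and 35.6% of all genes. At least 1.5-fold, 14 were higher and 1 lower (background 15.5% and 17.1%), and the median was log2 0.32 against 0. Regulators and effectors were higher in 8 of 12 and lower in 1 (median log2 0.90), enzymes higher in 9 of 10 and lower in 0 (0.74), and synthetases higher in 7 of 11 and lower in 2 (0.12). No knock-out or inhibitor enters this comparison, which sets leukemias of the same genotype side by side.

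Cth, which makes cysteine from cystathionine, was at 0.178, 0.309 and 0.115 CPM in WT0 PBS (4, 7 and 2 counts) and at 5.12, 4.56 and 5.05 CPM in WT6 (154, 116 and 114 counts). The WT6 libraries were above all 12 others, and the difference from WT0 PBS was log2 4.53 (SE 0.293, adjusted p = 8.46e-24). Chac1, which degrades glutathione, stood at 0.355, 0.264 and 0.346 CPM in WT0 PBS and 4.26, 4.17 and 4.48 in WT6, a difference of log2 3.72 (SE 0.283, adjusted p = 3.86e-20). Pycr1 stood at 1.15, 1.41 and 1.9 CPM against 10.7, 12.3 and 11.2, a difference of log2 2.96 (SE 0.148, adjusted p = 4.19e-30). Each of these 3 genes was at 3.6 CPM or less in every library outside WT6. Atf3, an early stress transcription factor, was higher by log2 2.03 (SE 0.222, adjusted p = 3.93e-13), Ddit4 by 1.38 and Atf5 by 0.88. Ddit3 was at log2 -0.60 (adjusted p = 2.54e-14), Iars at log2 -0.22 (adjusted p = 7.61e-10) and Aars at -0.13 (adjusted p = 4.07e-05; -0.06, adjusted p = 0.0581, with total-count scaling). Atf4 differed by log2 0.01 (adjusted p = 0.652) and Asns by 0.06 (adjusted p = 0.192), neither past the threshold, although with total-count scaling both passed, at 0.08 (adjusted p = 0.00301) and 0.13 (adjusted p = 0.00439).

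Of the other genes, Slc7a11, the cystine transporter, was higher in WT6 by log2 2.02, from 3.29 ± 0.051 to 13.4 ± 0.267 CPM, and Eif4ebp1 by 0.95. The sensors and eIF2 machinery were higher in 5 and lower in 9 of 16, with Ppp1r15a, the stress-induced eIF2α phosphatase subunit GADD34, at log2 -1.93 and Eif2ak1, the heme-regulated eIF2α kinase, at -1.33. Other ATF4 or CHOP targets were higher in 7 and lower in 8 of 17 (all genes 36.8% and 35.6%), with the glycine transporter Slc6a9 at log2 -2.50. Ppp1r15a, Eif2ak1 and Slc6a9 had mean levels of 265, 229 and 147 CPM in WT0 PBS, 346, 245 and 176 in WT0 ERG-245, 69.7, 91.3 and 25.8 in WT6, then 369, 271 and 142 in KO7 and finally 79.6, 95.1 and 26.2 in KO3. These 3 were low in WT6 and KO3, the groups in which erythroid markers held 1.17% to 1.34% and 1.11% to 1.16% of counts over libraries, and high in the 3 groups at 3.86% to 5.87%. All 11 erythroid markers were lower and all 9 plasma cell markers higher in WT6 than in WT0 PBS. The plasma cell markers held their smallest share of counts in WT0 PBS (0.141%) and their largest in WT6 (0.925%). Cth, Chac1 and Pycr1 also had their lowest group mean in WT0 PBS and their highest in WT6. Between these, KO7 was above KO3 in the plasma cell share (0.426% and 0.32%), in which Ighm stood at 2270 and 767 CPM. By gene, 7 of the 9 plasma cell markers were higher in KO3 than in KO7, and 1 was lower. The mean levels of Cth, Chac1 and Pycr1 were higher in KO3 than in KO7 as well. The 8 neutrophil markers tested were all higher in WT6 as well (median log2 2.40; 0.0328% to 0.0351% of counts over libraries, against 0.00678% to 0.00702%). Macrophage markers were higher in 7 and lower in 2 of 10, stroma markers higher in 5 and lower in 2 of 7, B cell markers higher in 4 and lower in 2 of 7, and platelet markers higher in 1 and lower in 3 of 5. The part of these cells in the members' differences was not tested.

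**Figure D4:**
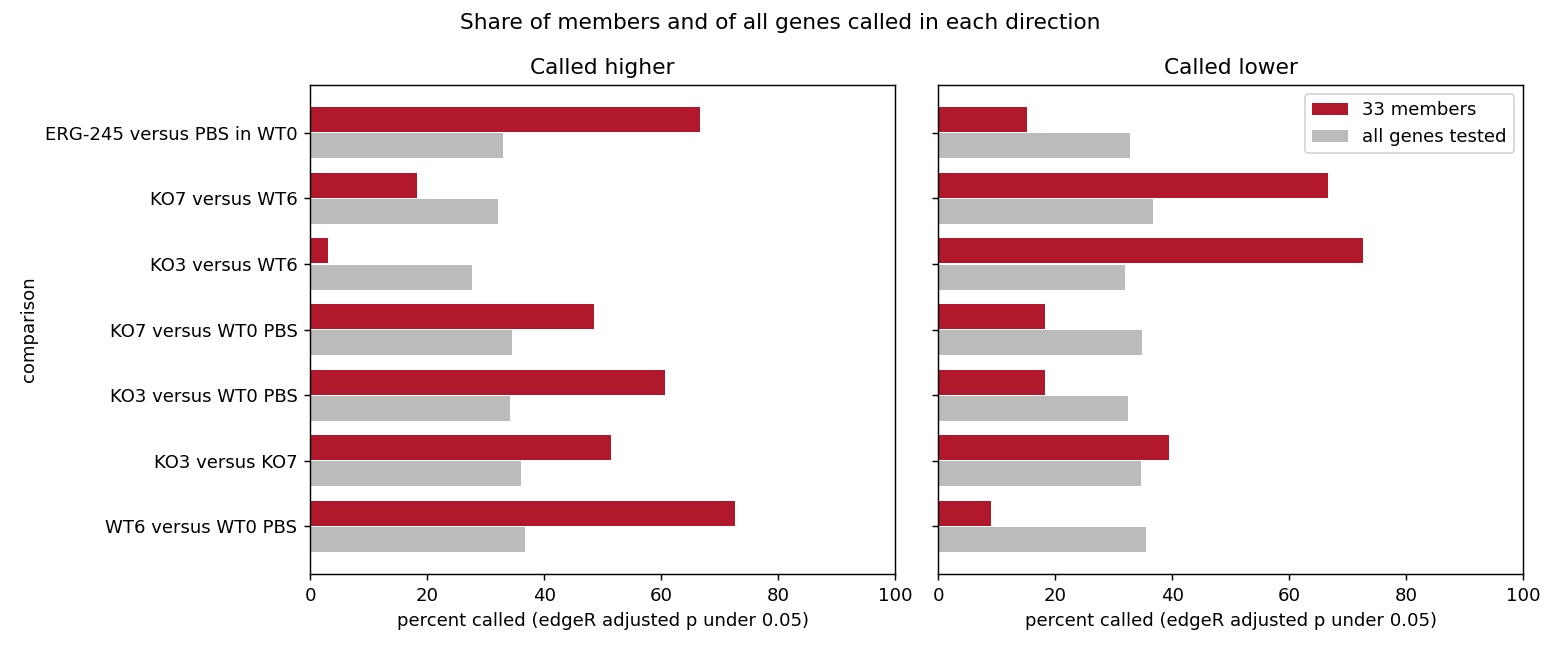
Percentage of the 33 members and of all genes tested that were higher (left) or lower (right) in each comparison, at an edgeR adjusted p under 0.05. Members were more often lower than all genes in both knock-outs against WT6 and more often higher against WT0 PBS.

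The question of the knock-outs is what the loss of Bcat1 goes with in leukemias with the same oncogene, and each knock-out was set against each wild-type leukemia given PBS. Comparisons with the same wild type share its 3 libraries. Against WT6, KO7 was higher in 6 of 33 members and lower in 22, where 32.2% and 36.7% of all genes were higher and lower, and the median was log2 -0.15 against -0.03. At least 1.5-fold, 2 were higher and 7 lower (background 15.4% and 13.3%). KO3 against WT6 was higher in 1 member, Wars, and lower in 24, where 27.7% and 32% of all genes were called, with a median of log2 -0.22 against -0.02. At least 1.5-fold, 0 were higher and 8 lower (background 7.44% and 13%). Against WT0 PBS more members were higher than lower in both knock-outs. KO7 was higher in 16 and lower in 6 (all genes 34.5% and 34.9%; median log2 0.20 against 0, and 0.10 when only these 2 groups were fitted), and KO3 was higher in 20 and lower in 6 (all genes 34.1% and 32.4%; median log2 0.13 against 0). At least 1.5-fold, 7 were higher and 0 lower in KO7 (background 15.1% and 13.9%), and 7 higher and 2 lower in KO3 (background 8.71% and 14.4%).

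Cth stood at 0.603, 0.341 and 0.227 CPM in KO7 and 0.756, 0.607 and 1.02 in KO3, below the WT6 libraries by log2 -3.60 (SE 0.266, adjusted p = 1.09e-20) and -2.62 (SE 0.221, adjusted p = 1.22e-17). All 6 knock-out libraries were below WT6, and 5 of them were above every WT0 PBS library. Chac1 stood at 0.503, 0.738 and 0.398 CPM in KO7 and 0.803, 1.64 and 1.29 in KO3, with differences from WT6 of log2 -2.97 (SE 0.262, adjusted p = 6.52e-17) and -1.78 (SE 0.212, adjusted p = 1.52e-11). For Pycr1 these were -2.44 (SE 0.142, adjusted p = 3.39e-26) and -2 (SE 0.128, adjusted p = 9.87e-24). Against WT0 PBS, in which these genes were low, Chac1 was higher in KO3 by log2 1.94 (adjusted p = 3.19e-06) and Pycr1 by 0.96 (adjusted p = 1.98e-05), while Chac1 in KO7 differed by 0.76 (SE 0.453, adjusted p = 0.131).

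The regulators and effectors were higher in 4 and lower in 3 of 12 in KO7 against WT6 (median log2 0.13), and higher in 0 and lower in 10 in KO3 (median log2 -0.42). Against WT0 PBS they were higher in 8 and lower in 1 in KO7 (0.89), and higher in 6 and lower in 3 in KO3 (0.24). Ddit4 stood at 357, 359 and 372 CPM in WT6, 503, 497 and 482 in KO7 and 281, 268 and 283 in KO3. KO7 was above every other library and KO3 lay between WT6 and WT0 PBS. Its differences from WT6 were log2 0.45 (SE 0.0237, adjusted p = 1.33e-28) and -0.38 (SE 0.0244, adjusted p = 6.75e-24), and from WT0 PBS 1.82 (adjusted p = 3.15e-65) and 0.99 (adjusted p = 1.4e-46). Atf3 was at 0.799, 1.01 and 0.692 CPM in WT0 PBS, 3.72, 4.49 and 3.3 in KO7, and 1.46, 2.06 and 2.22 in KO3, above WT0 PBS by log2 2.17 (SE 0.229, adjusted p = 1.25e-13) and 1.17 (SE 0.257, adjusted p = 4.86e-05). Trib3 was above WT0 PBS by log2 1.46 in KO7 (adjusted p = 2.19e-09) and 1.03 in KO3 (adjusted p = 1.69e-05), and Vldlr by 1.10 in KO7 (adjusted p = 0.000567). Ddit3 was higher in KO7 than in WT6 by log2 0.63 (SE 0.0628, adjusted p = 1.05e-14), and in KO3 it stood at log2 -0.71 against WT0 PBS (SE 0.0646, adjusted p = 3.54e-16). Stc2 in KO3 was at log2 -1.44 against WT6 (SE 0.203, adjusted p = 3.38e-09).

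The enzymes were higher in 1 and lower in 9 of 10 in KO7 against WT6 (median log2 -0.53), and higher in 0 and lower in 9 in KO3 (-0.24). Against WT0 PBS they were higher in 4 and lower in 2 in KO7 (0.19), and higher in 7 and lower in 1 in KO3 (0.48). Asns stood at 48.7, 50.7 and 49.1 CPM in WT6, 70.1, 69.6 and 70 in KO7 and 29, 30.6 and 29.3 in KO3. KO7 lay above and KO3 below both PBS wild types, which were close to each other. The difference from WT6 was log2 0.50 in KO7 (SE 0.0398, adjusted p = 5.04e-19) and -0.74 in KO3 (SE 0.0449, adjusted p = 5.86e-25), and from WT0 PBS 0.56 (adjusted p = 1.57e-20) and -0.68 (adjusted p = 3.06e-22). Psat1, the serine pathway aminotransferase, was at 136, 132 and 142 CPM in WT0 PBS, 231, 233 and 233 in WT6, 105, 106 and 105 in KO7, and 199, 197 and 203 in KO3. KO7 was below and KO3 above WT0 PBS, while both were below WT6. In KO7 the difference from WT6 was log2 -1.14 (SE 0.0293, adjusted p = 9.31e-49) and from WT0 PBS -0.37 (SE 0.0315, adjusted p = 9.84e-18).

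Shmt2, which turns serine into glycine in mitochondria, was the only member whose 6 knock-out libraries all lay on 1 side of the 6 PBS wild-type libraries, all below (3.71% of all genes), and 0 members had all 6 above (2.97%). A count of 1 in 33 members is close to the share over all genes, so it does not set the members apart. The level of Shmt2 was 235, 230 and 228 CPM in WT0 PBS, 249, 251 and 251 in WT6, 169, 161 and 164 in KO7, and 225, 219 and 225 in KO3. KO3 lay just under WT0 PBS and KO7 far under it, at log2 -0.49 (SE 0.0271, adjusted p = 2.07e-27). The treated WT0 libraries, at 221, 232 and 233 CPM, overlapped both WT0 PBS and KO3.

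The synthetases were higher in 1 and lower in 10 of 11 in KO7 against WT6 (median log2 -0.15), and higher in 1 and lower in 5 in KO3 (-0.04). Against WT0 PBS they were higher in 4 and lower in 3 in KO7 (-0.02) and higher in 7 and lower in 2 in KO3 (0.11). Aars stood at 143, 148 and 145 CPM in WT6, 191, 192 and 185 in KO7 and 124, 128 and 123 in KO3, so that, as for Asns, KO7 was above and KO3 below both PBS wild types. Its differences from WT6 were log2 0.38 (SE 0.0277, adjusted p = 7.66e-21) and -0.22 (SE 0.0286, adjusted p = 4.3e-10), and in KO3 it stood at -0.34 against WT0 PBS (SE 0.029, adjusted p = 8.05e-18). Eprs, which charges tRNAs for glutamate and proline, was at 182, 180 and 180 CPM in WT0 PBS, 178, 179 and 173 in WT6, 128, 127 and 128 in KO7 and 177, 187 and 179 in KO3. KO7 alone was low, at log2 -0.50 against WT0 PBS (SE 0.029, adjusted p = 5.31e-26). Iars was at 137, 136 and 132 CPM in WT0 PBS, 119, 117 and 113 in WT6, 99.6, 104 and 97.9 in KO7 and 113, 114 and 113 in KO3. Against WT0 PBS it stood at log2 -0.43 in KO7 (adjusted p = 2.08e-20) and -0.26 in KO3 (adjusted p = 1.31e-11). Wars, the tryptophanyl synthetase, was at 71.1, 69.7 and 76 CPM in WT6 and 81.7, 81 and 87.8 in KO3, above all other libraries, with a difference of log2 0.21 (SE 0.0388, adjusted p = 2.31e-06).

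Synthetases outside the members differed in direction from them in places. Of all genes, 32.2% were higher and 36.7% lower in KO7 than in WT6, and 27.7% and 32% in KO3. Against WT0 PBS these shares were 34.5% and 34.9% in KO7, and 34.1% and 32.4% in KO3. Against WT6, other cytosolic synthetases were higher in 4 and lower in 2 of 9 in KO7, and higher in 8 and lower in 1 in KO3 (median log2 0.14), where Kars stood at 0.39 and the aspartyl synthetase Dars at 0.25. Mitochondrial synthetases were higher in 2 and lower in 9 of 17 in KO7, and higher in 10 and lower in 2 in KO3 (median log2 0.14). The sensors and eIF2 machinery were higher in 6 and lower in 6 of 16 in KO7, and higher in 8 and lower in 2 in KO3. Against WT0 PBS these were higher in 7 and lower in 6 in KO7 and higher in 6 and lower in 7 in KO3. Counts of other ATF4 or CHOP targets against WT6 were near the shares over all genes. These targets were higher in 6 and lower in 6 of 17 in KO7. In KO3 they were higher in 4 and lower in 7. Among them Slc7a3, a transporter of basic amino acids, was at 4.42 ± 0.0937 CPM in WT6 and 0.654 ± 0.162 in KO3 (log2 -2.75), and Slc7a11 at log2 -1.18. Jdp2, a repressor of AP-1 targets, was above WT0 PBS by log2 1.97 in KO7 and 1.25 in KO3.

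Members with the promoter core were higher in 3 and lower in 6 of 12 in KO7 against WT6 (median log2 -0.04), and those without it higher in 3 and lower in 12 of 17 (-0.39). In KO3 against WT6 both sets had 0 higher, with 8 of 12 (-0.39) and 13 of 17 (-0.18) lower. Against WT0 PBS, members with the core were higher in 8 and lower in 1 in KO7 (0.54) and higher in 7 and lower in 3 in KO3 (0.18), and those without it higher in 7 and lower in 5 of 17 (0.03) and higher in 9 and lower in 3 (0.10). In WT6 against WT0 PBS, members with the core were higher in 8 and lower in 2 of 12 (0.36), and those without it higher in 12 and lower in 1 of 17 (0.32). The shares of all genes higher and lower than in WT6 were 32.2% and 36.7% in KO7, and 27.7% and 32% in KO3. Against WT0 PBS they were 34.5% and 34.9% in KO7, 34.1% and 32.4% in KO3, and 36.8% and 35.6% in WT6. The difference between members with and without the core was not tested. In KO7 all 11 erythroid markers and 9 of 10 macrophage markers were higher than in WT6, and 8 of 9 plasma cell markers lower. In KO3 erythroid markers split, with 4 higher and 4 lower, and 8 of 9 plasma cell markers were lower. Macrophage markers in KO3 were higher than in WT6 in 1 and lower in 7 of 10. Stroma markers against WT6 were higher in 3 and lower in 3 of 7 in KO7, and higher in 0 and lower in 6 in KO3. Neutrophil markers were lower than in WT6 in 7 of 8 tested in both knock-outs (median log2 -1.57 in KO7 and -0.71 in KO3), and B cell markers in 6 of 7 (-2.54 and -0.70). Against WT0 PBS the erythroid markers were higher in all 11 genes in KO7 and lower in all 11 in KO3, and all 8 neutrophil markers tested were higher in both. B cell markers were lower than in WT0 PBS in 7 of 7 in KO7 and 4 of 7 in KO3. Against the same wild type, plasma cell markers were higher in 7 and lower in 1 of 9 in KO7 and higher in 9 of 9 in KO3. Macrophage markers were higher in 8 and lower in 2 of 10 in KO7, and higher in 6 and lower in 4 in KO3. Stroma markers were higher in 3 and lower in 3 of 7 in KO7, and higher in 2 and lower in 4 in KO3. The part of these cells in the members' differences was not tested.

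The knock-out leukemias differed from each other in most members, with Asns and several effectors lower and Psat1, Phgdh and Shmt2 higher in KO3. KO3 was higher than KO7 in 17 of 33 and lower in 13, against 36.1% and 34.6% of all genes (median log2 0.11 against 0.01), and at least 1.5-fold higher in 3 and lower in 9 (background 13.1% and 18.9%). By role, regulators and effectors were higher in 2 and lower in 9 of 12 (median log2 -0.67), enzymes higher in 7 and lower in 2 of 10 (0.44), and synthetases higher in 8 and lower in 2 of 11 (0.15). Asns stood in KO3 at log2 -1.24 (SE 0.0446, adjusted p = 5.95e-39) and Atf4 by -0.46 (SE 0.0262, adjusted p = 9.85e-27). Atf3 stood at log2 -1 (SE 0.192, adjusted p = 4.24e-06), Stc2 at -1 (SE 0.228, adjusted p = 7.4e-05) and Vldlr at -0.97 (SE 0.281, adjusted p = 0.0016). Psat1 was higher in KO3 by log2 0.92 (SE 0.0301, adjusted p = 1.24e-41), Phgdh by 0.48 (SE 0.0266, adjusted p = 2.31e-27), Gpt2 by 0.50 (SE 0.109, adjusted p = 3.75e-05) and Eprs by 0.50 (SE 0.0289, adjusted p = 2.06e-26). Phgdh, the first enzyme of serine synthesis, was at 187, 188 and 177 CPM in KO7 and 259, 255 and 256 in KO3, and WT6 lay above both at 309, 298 and 307. All 11 erythroid markers and 9 of 10 macrophage markers were lower in KO3 than in KO7, where B cell markers were higher in 6 of 7 and lower in 0 (median log2 1.95), plasma cell markers higher in 7 and lower in 1 of 9, and neutrophil markers higher in 7 and lower in 1 of 8. Platelet markers were higher in 2 and lower in 1 of 5 and stroma markers higher in 2 and lower in 4 of 7, and the part of these cells was not tested.

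Since 1 leukemia may underlie all libraries of a group, the genotypes were also compared with each leukemia as 1 sample, KO7 and KO3 against WT6 and WT0 PBS on summed counts. No member passed: 0 of 33 were higher or lower by edgeR, against 0% and 0% of 17226 genes, and 0 of 33 had an unadjusted p under 0.05, as did 226 of all genes. DESeq2 called 19 genes higher and 24 lower, 0 of them members. The median over the members was log2 -0.04 against 0 for all genes. Atf4 differed by log2 0.11, Asns by 0.05 and Shmt2 by -0.30 (SE 0.229), each with an edgeR adjusted p of 1. The biological coefficient of variation was 41.9% between leukemias, with 2 residual degrees of freedom, against 2.18% between libraries of a group.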

How the data were processed

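RNeasy extracts went into Illumina's stranded mRNA kit (TruSeq), per the labels' protocols. The submitters' processing notes name Trim Galore, STAR, Subread and DESeq2, without settings, and the build mm10. The authors deposited raw counts of fragments per gene, made with featureCounts 2.0.1 at a minimum overlap of 25 bases and strand setting 2, per the file headers; the aligner's parameters are not given in the sources used here. The table's length column (unit other), in bases, was used for CPM per kilobase, per the file headers. Counts of 39827 genes were read, and 3 genes whose lines were broken were left out. Symbols were matched for 39743 gene IDs and not for 84. Coordinates are those of GRCm38.p6.

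Counts of all 15 libraries were fitted in R 4.3.3 with edgeR 4.0.16 (filterByExpr, TMM, quasi-likelihood test, 10 residual degrees of freedom) over 15948 genes, with Benjamini-Hochberg adjustment over all of them. Genes were called at an adjusted p under 0.05, and also counted at 1.5-fold (log2 0.585). Levels are CPM over TMM-adjusted totals, with log2 differences from edgeR. Named members were Atf4 and, per comparison, up to 4 in each direction by size among those called, with a mean of at least 1 CPM and libraries that did not overlap; others were named after their values were seen. The members and lists were chosen with earlier results of these data known. DESeq2 1.42.0, other scalings and filters, fits of the 2 groups alone, a replicate block and leaving out libraries were tried as alternatives.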

Additional observations from a re-analysis of the deposited data

Results flagged for a closer look

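Some members were past the threshold in opposite directions in the 2 knock-outs when both were set against the same wild type. The difference itself, KO3 minus KO7, was tested in edgeR and passed for each of them. Of all genes tested, 36.1% were higher and 34.6% lower in KO3 than in KO7. How many of all genes had opposite calls in this way was not counted, so the pattern does not set the members apart. Against WT6 this held for Atf4 (log2 -0.46), Ddit4 (-0.83), Asns (-1.24) and Aars (-0.60), which were higher in KO7 and lower in KO3, and for Wars (0.32), which was lower in KO7 and higher in KO3. Against WT0 PBS it held for Atf4 (-0.46), Asns (-1.24) and Aars (-0.60) in the same direction, and for Psat1 (0.92), which was lower in KO7 and higher in KO3. Each knock-out is a single leukemia, and the comparisons share their wild-type libraries. Erythroid markers held 5.75% of counts in KO7 and 1.14% in KO3, and macrophage markers 0.326% and 0.145%. The part of these cells in the differences was not tested.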

How the results depend on the processing

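The counts of members higher or lower kept their direction and stayed within 1.5 times under each alternative run, except as follows. With total-count scaling 9 members were lower under ERG-245 (5 with TMM), 2 of them at least 1.5-fold, and at that fold 0 members were higher in KO7 than in WT6 (2 with TMM; 1 by DESeq2) and 0 lower in WT6 than in WT0 PBS. That scaling moved Atf4 to log2 -0.08 under ERG-245 and 0.08 in WT6 against WT0 PBS, past the threshold in both. The median for KO7 against WT0 PBS was log2 0.10 when only these 2 groups were fitted. Across leukemias DESeq2 called 19 genes higher and 24 lower, and edgeR without the filter 3 and 5, with Ddit3 at log2 0 on the other side of 0.

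Leaving out each library in turn, members lower at least 1.5-fold numbered 1 to 2 under ERG-245 (2 without WT0 PBS replicate 3 or WT0 ERG-245 replicate 3) and 0 to 1 in WT6 against WT0 PBS (0 without WT0 PBS replicate 3 or WT6 replicate 1). Members higher at that fold in KO7 than in WT6 numbered 0 to 2 (0 without WT6 replicate 1). Atf4 ranged from log2 -0.03 to 0.01 under ERG-245 and from -0.01 to 0.04 in WT6 against WT0 PBS. Leaving out each leukemia gave 0 to 4 genes higher and 0 to 3 lower, and a members' median of log2 -0.14 (without WT0 PBS) to 0.16 (without WT6). Atf4 then ranged from log2 -0.13 to 0.32, Ddit3 from -0.41 to 0.34 and Asns from -0.69 to 0.54, each lowest without KO7. The cause of these shifts was not tested.

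With the replicate number as a block, 23 members were lower in KO7 against WT6 (22 without it), and the other counts of members called were the same. Same-numbered libraries did not deviate together (correlations of -0.06 to 0.04), so the numbers were not taken to pair libraries. Members below 5 CPM, such as Cth and Chac1, rest on few counts, and their differences are the least precise.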
